A study of Mus musculus with 24 samples.

Results

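Wt1, Tlx1, Vgll2, Tal1 and Sox17 are regulators best known from lineages other than the cranial neural crest, the migratory embryonic cells that form much of the face. Their promoter contacts were followed in mouse embryos by promoter capture Hi-C, in which cross-linked DNA is cut with the restriction enzyme HindIII, ligated, and enriched for junctions that hold a promoter fragment, called a bait. A bait was taken as a member where an annotated end of 1 of the 5 genes lay inside it or within 1 kb. This gave 7 of the 22203 baits in the series. The genes had been picked from these same data, either for a fall of contacts in Ezh2cKO or for many developmental genes among their contacts in wild type (WT), so those values are given here as a description with no test.

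The 24 libraries formed 12 groups of 2. The earliest group was WT neural crest progenitors at E8.5. At E11.5 the tissues FNP, Mx, Md and PA2 were profiled in WT and in Ezh2cKO embryos. The labels do not spell out these tissue names, which in mouse embryology usually stand for the frontonasal process, the maxilla and mandible primordia and pharyngeal arch 2. Embryos with Hoxa2PTE-36kb-del gave Md and PA2 libraries, and those with Hoxa2PTE-42kb-del gave PA2 libraries, both at E11.5. The protocol describes sorting of crest cells from Wnt1::Cre;ROSARFP embryos, in which Cre marks the crest lineage and its derivatives, and from Ezh2cKO embryos. It does not give the Cre driver of the knockout, nor say if the deletion libraries came from sorted cells, and it does not give the position of either deletion. All titles call the replicates biological except those of the 42kb deletion. Nothing in the labels ties libraries to single embryos, so the p-values measure the spread between these libraries.

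The product of Ezh2 is the catalytic subunit of the Polycomb complex that puts a silencing methyl mark on histone H3. Polycomb domains often cover the unmethylated, CG-rich promoters of developmental regulators that a cell does not use, and such domains can meet each other over long distances in the nucleus. Genes that specify kidney, spleen, muscle, blood or endoderm are typical of this class in cells that follow another fate.

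The libraries held between 142284 and 190343 called pairs, each with a score of at least 5. The E11.5 WT libraries held 168670 to 176164 pairs and the Ezh2cKO libraries 164248 to 190343, so the ranges overlapped. The 36kb deletion libraries held 142284 to 154232. Calls over 1 Mb or more on the chromosome of the bait, or to another chromosome, are called long-range here. Their share was 31.3% to 34.8% in E11.5 WT, 26.1% to 33.9% in Ezh2cKO and 26.6% to 28.9% in the 36kb deletion. Read depth is unknown, and only contacts were measured, so the cell type of a library and the expression of the members could not be checked.

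The Wt1 bait (chr2:105125294-105129342, mm10) holds the start of Wt1, a zinc finger regulator of kidney, gonad and mesothelium, and an end of the noncoding gene Wt1os. Tlx1, a homeobox gene needed for the spleen, had 2 adjoining baits. The upstream one (chr19:45145003-45151723) holds the gene's start, and the downstream one (chr19:45151724-45160892) holds only its far end. Vgll2, a cofactor of TEAD factors in skeletal muscle, also had 2 baits, an upstream one at the gene's start (chr10:52017323-52024958) and a downstream one at its end (chr10:52027019-52034998). The Tal1 bait (chr4:115056162-115069246) holds the start of Tal1, a basic helix-loop-helix factor of blood and endothelium. The Sox17 bait (chr1:4495519-4498339) holds the upper annotated end of Sox17, an HMG-box factor of endoderm and endothelium. The nearest protein-coding neighbours on either side were Eif3m and Them7 for Wt1, Kazald1 and Lbx1 for Tlx1, Rfx6 and Ros1 for Vgll2, Stil and Pdzk1ip1 for Tal1, and Rp1 and Mrpl15 for Sox17.

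The promoters at both ends of the most regular contacts are shown because CG-rich promoters are the usual seat of Polycomb domains. Each is the 250 bases before an annotated start in RefSeq (GRCm38.p6), on the strand of the gene, and capitals mark the dinucleotide CG, which reads the same on both strands. Of the 5 members, 3 have windows in the RefSeq table used. Tlx1 and its partner Nkx2-3 lie at chr19:45150465-45150714 (+) and chr19:43612075-43612324 (+), Vgll2 and its partner Sim1 at chr10:52022252-52022501 (+) and chr10:50895401-50895650 (+), and a Tal1 window and its partner Cdkn2c at chr4:115057561-115057810 (+) and chr4:109666757-109667006 (-). The Pax6 window, within the partner region of Wt1, lies at chr2:105668646-105668895 (+).
Tlx1: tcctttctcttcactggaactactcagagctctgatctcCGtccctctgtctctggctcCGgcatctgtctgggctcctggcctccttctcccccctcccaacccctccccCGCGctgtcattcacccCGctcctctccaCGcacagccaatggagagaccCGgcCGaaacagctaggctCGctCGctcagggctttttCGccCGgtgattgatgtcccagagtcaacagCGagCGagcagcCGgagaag
Nkx2-3: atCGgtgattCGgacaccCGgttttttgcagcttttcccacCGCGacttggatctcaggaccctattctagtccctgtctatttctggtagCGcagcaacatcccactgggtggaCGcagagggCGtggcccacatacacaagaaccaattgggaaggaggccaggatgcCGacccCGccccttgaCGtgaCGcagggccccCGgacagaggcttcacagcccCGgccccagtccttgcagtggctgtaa
Vgll2: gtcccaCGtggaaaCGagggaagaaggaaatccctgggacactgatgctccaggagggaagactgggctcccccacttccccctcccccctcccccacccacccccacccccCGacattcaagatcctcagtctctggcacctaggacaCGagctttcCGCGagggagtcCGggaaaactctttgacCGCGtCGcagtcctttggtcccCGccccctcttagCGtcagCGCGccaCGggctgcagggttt
Sim1: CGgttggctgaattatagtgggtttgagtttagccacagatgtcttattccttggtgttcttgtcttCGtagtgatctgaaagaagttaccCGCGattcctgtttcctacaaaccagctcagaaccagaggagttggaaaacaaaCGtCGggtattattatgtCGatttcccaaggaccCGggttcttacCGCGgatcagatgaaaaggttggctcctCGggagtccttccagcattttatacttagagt
Tal1: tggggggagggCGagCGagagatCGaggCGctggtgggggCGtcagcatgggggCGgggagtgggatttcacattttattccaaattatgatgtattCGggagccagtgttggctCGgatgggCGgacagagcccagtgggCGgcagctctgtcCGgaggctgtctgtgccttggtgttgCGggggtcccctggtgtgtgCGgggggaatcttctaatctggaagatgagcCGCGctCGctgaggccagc
Cdkn2c: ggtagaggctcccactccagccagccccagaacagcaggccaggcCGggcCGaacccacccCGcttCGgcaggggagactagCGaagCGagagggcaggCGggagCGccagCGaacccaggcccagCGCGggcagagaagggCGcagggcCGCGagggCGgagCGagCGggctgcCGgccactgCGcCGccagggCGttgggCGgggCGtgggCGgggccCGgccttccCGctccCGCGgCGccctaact
Pax6: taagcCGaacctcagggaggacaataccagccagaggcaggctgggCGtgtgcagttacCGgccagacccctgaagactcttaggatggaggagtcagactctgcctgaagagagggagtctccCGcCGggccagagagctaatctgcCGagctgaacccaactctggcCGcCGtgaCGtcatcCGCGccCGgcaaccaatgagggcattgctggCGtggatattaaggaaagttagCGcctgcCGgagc
The Tlx1 and Vgll2 windows hold 15 CG each, and 72.7% of the 32851 promoter windows in the table hold fewer. The Tal1 window shown holds 16, against 74.6% of windows with fewer, while the other annotated Tal1 start has 6, the median of all windows. The partner windows hold 14 CG at Nkx2-3, 11 at Sim1, 15 at Pax6 and 29 at Cdkn2c. These windows were chosen among the annotated starts, and others at the same loci hold fewer, with 6 CG at the other Cdkn2c start and 5 at the first of 3 Pax2 starts. The counts describe the sequence and not a bound factor.

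**Figure D1:**
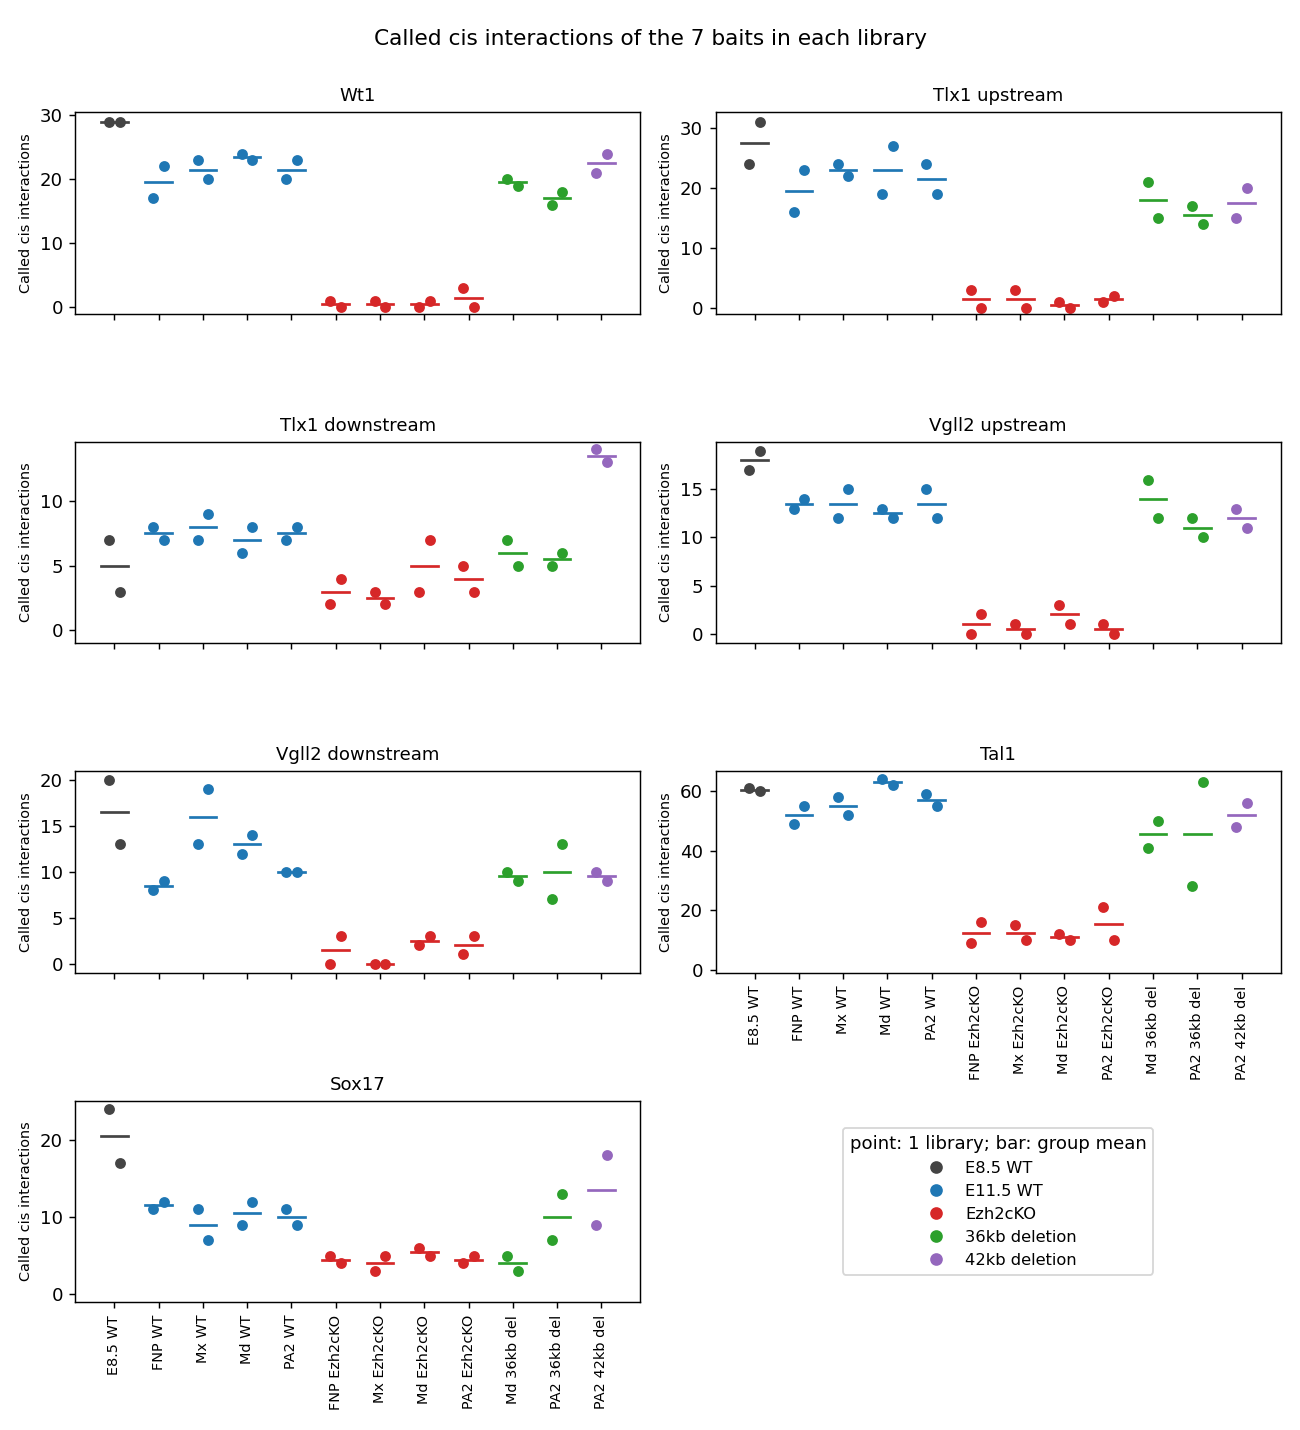
Called cis interactions (vertical axis, number per library) of each of the 7 baits in the 12 groups. Each point is 1 library and each bar a group mean. The Wt1 points sit between 17 and 24 in E11.5 WT and between 0 and 3 in Ezh2cKO.

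A call on the same chromosome as the bait is a cis interaction, and calls were counted with the bait in either position of a listed pair. In 6 of the 7 baits, the E11.5 WT and Ezh2cKO libraries did not overlap in cis calls. Of these, Sox17 did overlap when only the first position was counted. Over all 10344 baits tested, 5.39% were called lower in Ezh2cKO and 5.38% higher. In long-range calls these shares were 5.89% and 3.98% of 5957 baits. These are shares of baits that passed the fit. The share of all baits whose libraries did not overlap was not computed, so the 6 of 7 cannot be set against them. The members were also picked for this contrast, so nothing is read from that count. The plot of calls by library shows the baits with 0 to 3 calls in Ezh2cKO (Wt1, Tlx1 upstream and both Vgll2 baits) beside those with more (Tal1, Sox17 and Tlx1 downstream). These calls need not be contacts seen in WT.

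Wt1 contacts in WT crest were dominated by 1 region, the neighbouring Pax6 locus. The Wt1 bait had 17 to 24 cis calls in the 8 E11.5 WT libraries (median 22.5) and 0 to 3 in the 8 Ezh2cKO libraries (median 0.5). No Ezh2cKO library reached the lowest WT library. The fitted log2 difference, Ezh2cKO minus WT and relative to library totals with 0.5 added to each count, was -4.54 (SE 0.33). Pax6, a regulator of eye, brain and pancreas, lies 548 kb away. Of the fragments over Pax6, 15 to 18 were called with Wt1 in each E11.5 WT library. In Ezh2cKO, 7 libraries had no such fragment and the Mx replicate 1 library had 1. The E8.5 libraries had 18 and 17, the 36kb deletion libraries 17, 16, 16 and 15, and the 42kb deletion libraries 16 and 18. The Pax6 contact was therefore in every library except those of Ezh2cKO, where it was in 1 of 8.

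The partners of Wt1 beyond Pax6 differed with stage. At 30.4 Mb from the bait, the Hoxd cluster and Evx2, which pattern the trunk and limbs, gave 6 called fragments in each E8.5 library. In E11.5 WT the counts there were 0 in 5 libraries, 1 in 2 and 2 in 1. No Ezh2cKO or deletion library had a call there. All long-range calls of Wt1 numbered 9 and 10 in E8.5 and 1 to 4 in E11.5 WT (median 2), so the stages did not overlap. The test of this difference, relative to each library's long-range total, gave a log2 difference of -2.08 (SE 0.73, adjusted p = 0.0404, limma over 5957 baits), where 4.13% of baits were called lower at E11.5. The bait reached the filter, a mean of at least 2 long-range calls, only through the E8.5 libraries, where it was high. The test is therefore no support for a fall from E8.5, and the values are a description. Without either E8.5 library the bait fell under the filter and was not tested. The E11.5 WT libraries behind this test, and possibly those of E8.5, also took part in the choice of members, as they did in every stage test here. The call was lost without FNP, Md or PA2 replicate 1 or Mx replicate 2 of E11.5 WT (adjusted p = 0.0606 to 0.0728) and with a lower filter on calls (adjusted p = 0.0624). In all cis calls the E8.5 libraries, at 29 each, also lay above every E11.5 WT library. That log2 difference was -0.54 (SE 0.53, adjusted p = 0.480), and in a fit without the Ezh2cKO libraries, an alternative chosen after the data were seen, its adjusted p was 0.0238.

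Tlx1 showed different contacts at its start and at its end. The upstream bait had 16 to 27 cis calls in E11.5 WT (median 22.5) and 0 to 3 in Ezh2cKO (median 1), with no overlap, and a log2 difference of -4.11 (SE 0.38). The downstream bait had 6 to 9 calls in E11.5 WT (median 7.5) and 2 to 7 in Ezh2cKO (median 3), and here the Md Ezh2cKO replicate 2 library, at 7, lay inside the WT range. Its log2 difference was -1.08 (SE 0.23).

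Of the 13 recurrent partners of the upstream bait, meaning fragments called in at least 7 of the 8 E11.5 WT libraries, all were called in at most 1 of 8 Ezh2cKO libraries. They fell into 3 regions. Nkx2-3, a homeobox gene of spleen and gut 1.55 Mb away, had 4 or 5 called fragments in every E11.5 WT library and none in any Ezh2cKO library. Pax2, a regulator of kidney, ear and eye 395 kb away, had 4 in every E11.5 WT library and none in Ezh2cKO. Fgf8, a secreted signal of the early face and brain 594 kb away on the other side, had 4 with its neighbours Npm3 and Oga in every E11.5 WT library. In Ezh2cKO this last region had 2 fragments in FNP replicate 1, 1 in Mx replicate 1 and none in the other 6 libraries.

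Stage also divided the partners of the Tlx1 upstream bait. The neighbour Kazald1, which encodes a secreted protein, had 4 called fragments in both E8.5 libraries and 1 fragment in 1 of 8 E11.5 WT libraries. The downstream bait, however, was called with an adjoining Kazald1 fragment in both E8.5 and all 8 E11.5 WT libraries. Kazald1 was thus a partner of Tlx1 at both stages. Lbx1, a homeobox gene of migrating muscle precursors and spinal neurons, had 7 in both E8.5 libraries and 0 to 4 in E11.5 WT (median 2). Pax2 went the other way, with 0 and 3 fragments at E8.5. These were chosen as partners by their calls at E8.5 or at E11.5, so the contrast is a description. The test on all cis calls of the bait, 24 and 31 at E8.5, gave -0.45 (SE 0.59, adjusted p = 0.613).

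The downstream bait held the 1 recurrent partner among all members that at least 7 of 8 Ezh2cKO libraries also called. This was a Kazald1 fragment 81.5 kb away, called in all 24 libraries. The Nkx2-3 region was called with the downstream bait in all 8 E11.5 WT libraries and in 1 of 8 Ezh2cKO libraries. A fragment in Pax2 was called in 8 of 8 and 2 of 8. The same bait had the only contact common to the deletion libraries alone, a fragment with ends of Npm3 and Oga 593 kb away that was called in all 6 of them and in none of the other 18. That contact joins 2 baits, and the order in which such pairs are listed was the same in 85.0% of shared pairs between deletion libraries and the others and in 100% among the 18 others. Whether that difference in the lists bears on this contact was not tested. The adjoining upstream bait was called with the same Npm3 and Oga fragment in 8 of 8 E11.5 WT libraries and in both E8.5 libraries. The downstream bait was itself called with a fragment at the neighbouring Fgf8 in 3 of 8 E11.5 WT libraries. The locus was therefore not a partner of Tlx1 in the deletions alone.

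The recurrent contacts of both Vgll2 baits led to 1 distant locus, Sim1. The upstream bait had 12 to 15 cis calls in E11.5 WT (median 13) and 0 to 3 in Ezh2cKO (median 1), with a log2 difference of -3.58 (SE 0.32). The downstream bait had 8 to 19 in E11.5 WT (median 11) and 0 to 3 in Ezh2cKO (median 1.5), with a difference of -3.08 (SE 0.30). Neither bait's ranges overlapped. Sim1, a regulator of hypothalamic neurons and kidney, lies 1.12 Mb from the upstream bait, and the recurrent partners, 10 of the upstream and 7 of the downstream bait, were all among 10 distinct Sim1 fragments. From the upstream bait, 10 to 12 fragments of the Sim1 region, recurrent or not, were called in each E11.5 WT library. In Ezh2cKO, 1 fragment was called in 1 library, Md replicate 1, and none in the other 7. From the downstream bait, 6 or 7 were called in each E11.5 WT library and none in any Ezh2cKO library. The downstream bait also had long-range calls elsewhere that did not recur, with 13 and 19 in all in the Mx WT libraries against 7 Sim1 fragments in each. Long-range calls made up 98.1% and 98.9% of all calls of the 2 baits in E11.5 WT. The median over 10383 baits was 14.3%.

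The Vgll2 to Sim1 contact was also in every library of the other groups. The upstream bait called 12 and 11 Sim1 fragments at E8.5, 12, 8, 7 and 9 in the 36kb deletion, and 9 and 8 in the 42kb deletion. The downstream bait called 7 and 6 at E8.5, 6, 6, 6 and 7 in the 36kb deletion, and 5 and 5 in the 42kb deletion. These partners were chosen for regular calls in E11.5 WT, which by itself favours lower counts in other groups.

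Tal1 had the most cis calls of the 5 genes and recurrent partners in the most regions. Its bait had 49 to 64 cis calls in E11.5 WT (median 56.5) and 9 to 21 in Ezh2cKO (median 11), without overlap. The log2 difference was -2.18 (SE 0.16), and at a score threshold of 7 in place of 5 it was -3.73. Its 29 recurrent partners lay in 5 regions, and 27 of them were called in at most 1 of 8 Ezh2cKO libraries. Each Ezh2cKO library called 0 to 3 of the 29, so most of its 9 to 21 calls were to other fragments.

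The farthest was the locus of Cdkn2a and Cdkn2b, cell cycle inhibitors long studied as Polycomb targets, 25.8 Mb from Tal1. It had 7 to 12 called fragments in E11.5 WT and none in any Ezh2cKO library. The related inhibitor gene Cdkn2c, 5.40 Mb away, had 4 or 5 fragments in E11.5 WT and 1 fragment in 1 of 8 Ezh2cKO libraries. Dmrta2, a forebrain regulator 5.08 Mb away, had 3 to 6 in E11.5 WT and 1 fragment in 2 of 8 Ezh2cKO libraries. Dmbx1, a homeobox gene of the midbrain, with Faah, 898 kb away on the other side, had 11 to 15 in E11.5 WT and 0 to 3 in Ezh2cKO. A fragment between genes 397 kb away was called in 7 of 8 and 2 of 8 libraries. Part of the Dmbx1 contact thus remained in 5 of 8 Ezh2cKO libraries, while the Cdkn2a region had no call in any.

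Contacts of Tal1 with Foxd2 and Foxe3, forkhead genes 143 kb away, were most numerous at E8.5. Both E8.5 libraries had 5 called fragments there. The E11.5 WT libraries had 0 to 3 (median 1) and the Ezh2cKO libraries none. The 36kb deletion libraries had 2, 2, 1 and 2, and the 42kb deletion libraries 1 and 0, so the contact was not limited to the earlier stage. All cis calls of Tal1 at E8.5 numbered 61 and 60, within the E11.5 WT range, and the log2 difference of E11.5 WT from E8.5 was -0.21 (SE 0.25, adjusted p = 0.573).

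Sox17 had few recurrent contacts, and none of them was lost from nearly all Ezh2cKO libraries. Its bait had 7 to 12 cis calls in E11.5 WT (median 11) and 3 to 6 in Ezh2cKO (median 5), without overlap, and a log2 difference of -1.11 (SE 0.20). Counted in the first position of a pair only, it had 4 to 9 and 2 to 5 calls, and these ranges overlapped. The bait had only 2 recurrent partners. A fragment within 1 kb of Mrpl15, a mitochondrial ribosomal protein gene 275 kb away, was called in 7 of 8 E11.5 WT and 5 of 8 Ezh2cKO libraries. A fragment at Hjurp, which encodes a centromere histone chaperone, 83.8 Mb away, was called in 8 of 8 and 4 of 8.

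The Hjurp fragment was not particular to Sox17, since 1669 fragments were paired with it in E11.5 WT. Partners of the other members were also shared, though less widely. The most widely paired recurrent fragment was paired with 122 fragments at Nkx2-3, 91 at Sim1, 76 at Pax6 and 135 at Cdkn2a. Other recurrent fragments of these regions were paired with fewer, down to 2 at Sim1. The stretch of chromosome 1 between 88 and 88.5 Mb, set after its values were seen, took 786 to 945 pairs from over 1 Mb away in E11.5 WT libraries (median 855). It took 216 to 503 in Ezh2cKO (median 378) and 317 to 488 in the 36kb deletion (median 429.5). Calls of Sox17 into this stretch numbered 1 to 7 in E11.5 WT (median 3.5) and 0 to 2 in Ezh2cKO (median 1). Its other cis calls numbered 3 to 11 (median 6) and 2 to 6 (median 3.5), so these ranges overlapped once the stretch was set aside. The part of the stretch in the difference of Sox17 was not tested beyond these counts.

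Sox17 was the only bait that passed the stage test on all cis calls. The E8.5 libraries had 24 and 17 calls, above every E11.5 WT library. The log2 difference, E11.5 WT minus E8.5, was -1.08 (SE 0.32, adjusted p = 0.0158, limma over 10344 baits), where 10.3% of baits were called lower. Without E8.5 replicate 1 it was -0.80 (adjusted p = 0.244), with the lone E8.5 library assumed to vary like the other groups, so the call rested on that library. The WT libraries of this test also served in choosing the members. Contacts with Tfap2b, an AP-2 factor of neural crest and kidney 14.7 Mb away, had 4 and 3 called fragments at E8.5, a call in 2 of 8 E11.5 WT libraries and none in Ezh2cKO. They were also called in 3 of 4 libraries of the 36kb deletion and in both of the 42kb deletion. A contact with Pou3f3, a POU factor of brain and kidney 38.2 Mb away, was called in both E8.5 libraries and in no other library.

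**Figure D2:**
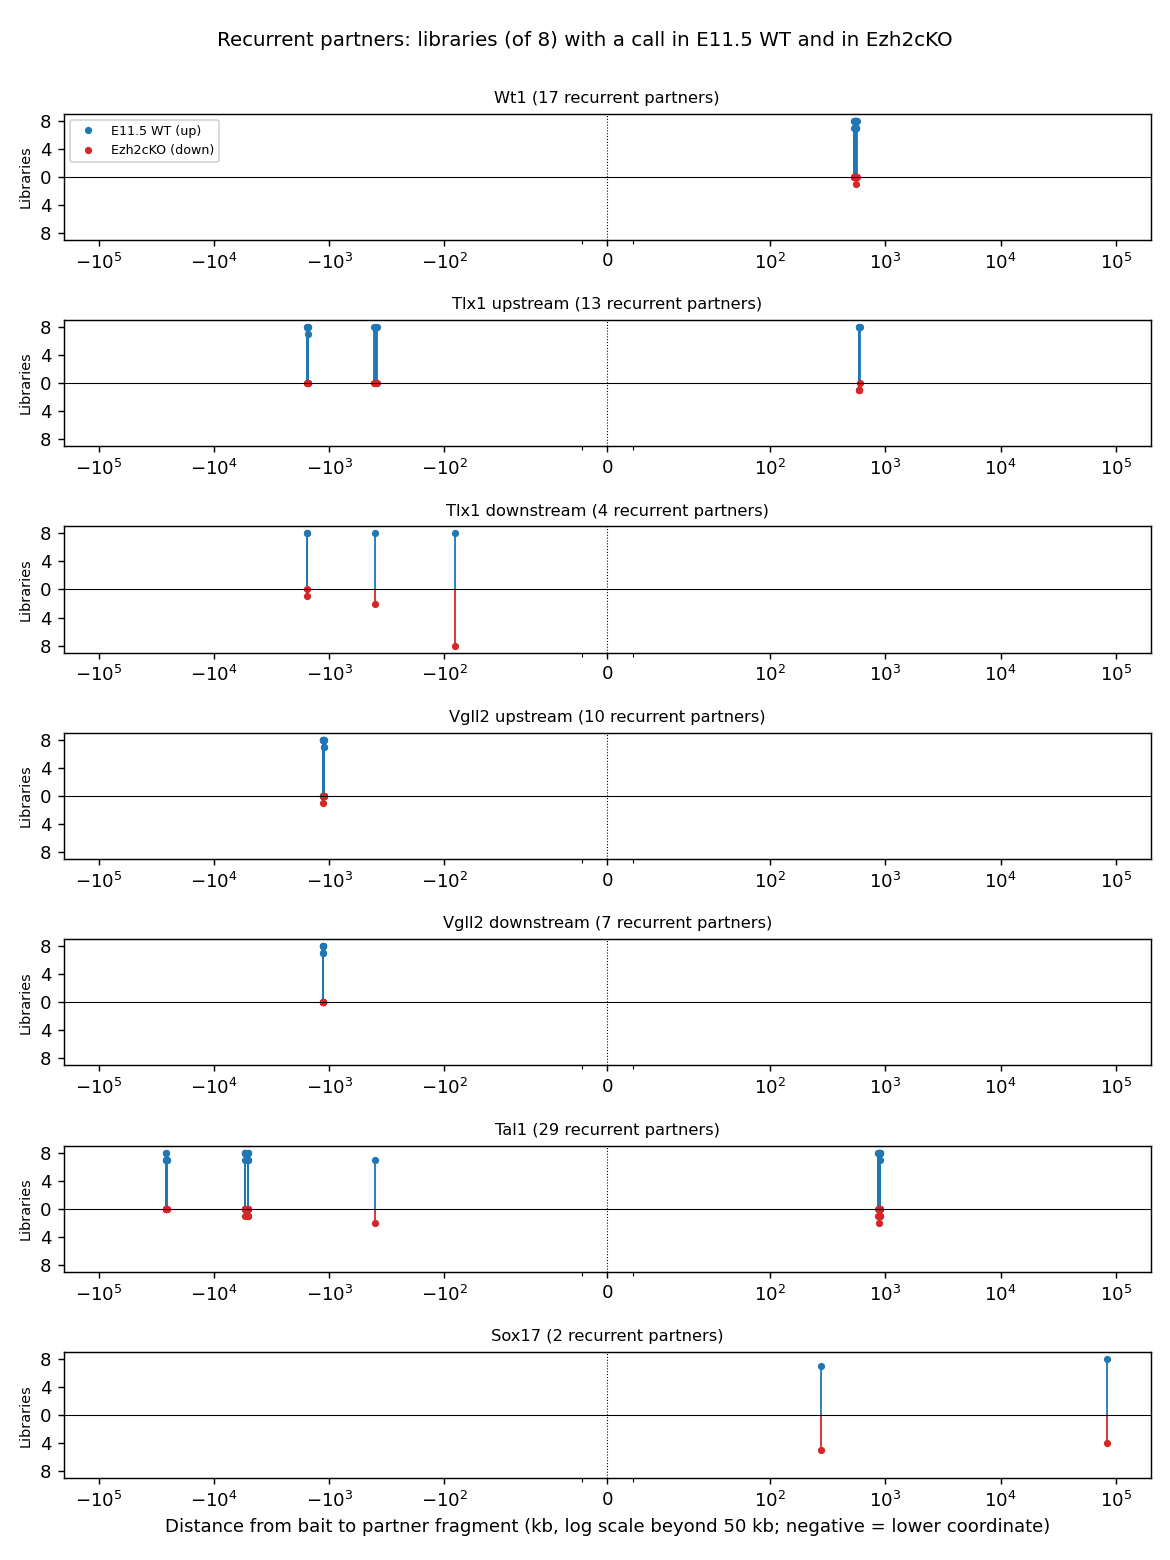
Recurrent partners of each bait by distance (horizontal axis in kb, log scale beyond 50 kb), with the number of E11.5 WT libraries that called them drawn upward and of Ezh2cKO libraries downward. The partners lie in a few narrow groups, and 1 of them, the Kazald1 fragment of Tlx1 downstream, reaches 8 libraries both ways.

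Across the 7 baits, 690 contacts, each a bait with a partner fragment, were called in at least 1 of the 24 libraries, and 82 of them were recurrent. The 82 held 72 distinct fragments, since 7 Sim1 fragments were shared by both Vgll2 baits and 3 fragments at Nkx2-3 and Pax2 by both Tlx1 baits. Of the 82 contacts, 76 were called in at most 1 of 8 Ezh2cKO libraries, 1 in all 8, and 5 in 2 to 5. No contact was gained, that is, called in at least 7 Ezh2cKO and at most 1 E11.5 WT libraries. The members were picked in part for falls in Ezh2cKO, and the same shares over all baits were not computed, so these counts are a description. The plot by distance shows that recurrent partners came in groups of neighbouring fragments, which are not independent contacts. Between 78 and 81 of the 82 were called in each E11.5 WT library, as their selection fixes. Between 1 and 7 (median 4.5) were called in each Ezh2cKO library. The E8.5 libraries called 75 and 71, the 36kb deletion libraries 62 to 73, and the 42kb deletion libraries 66 and 69. Every group outside Ezh2cKO thus had most of the recurrent contacts in each library.

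**Figure D3:**
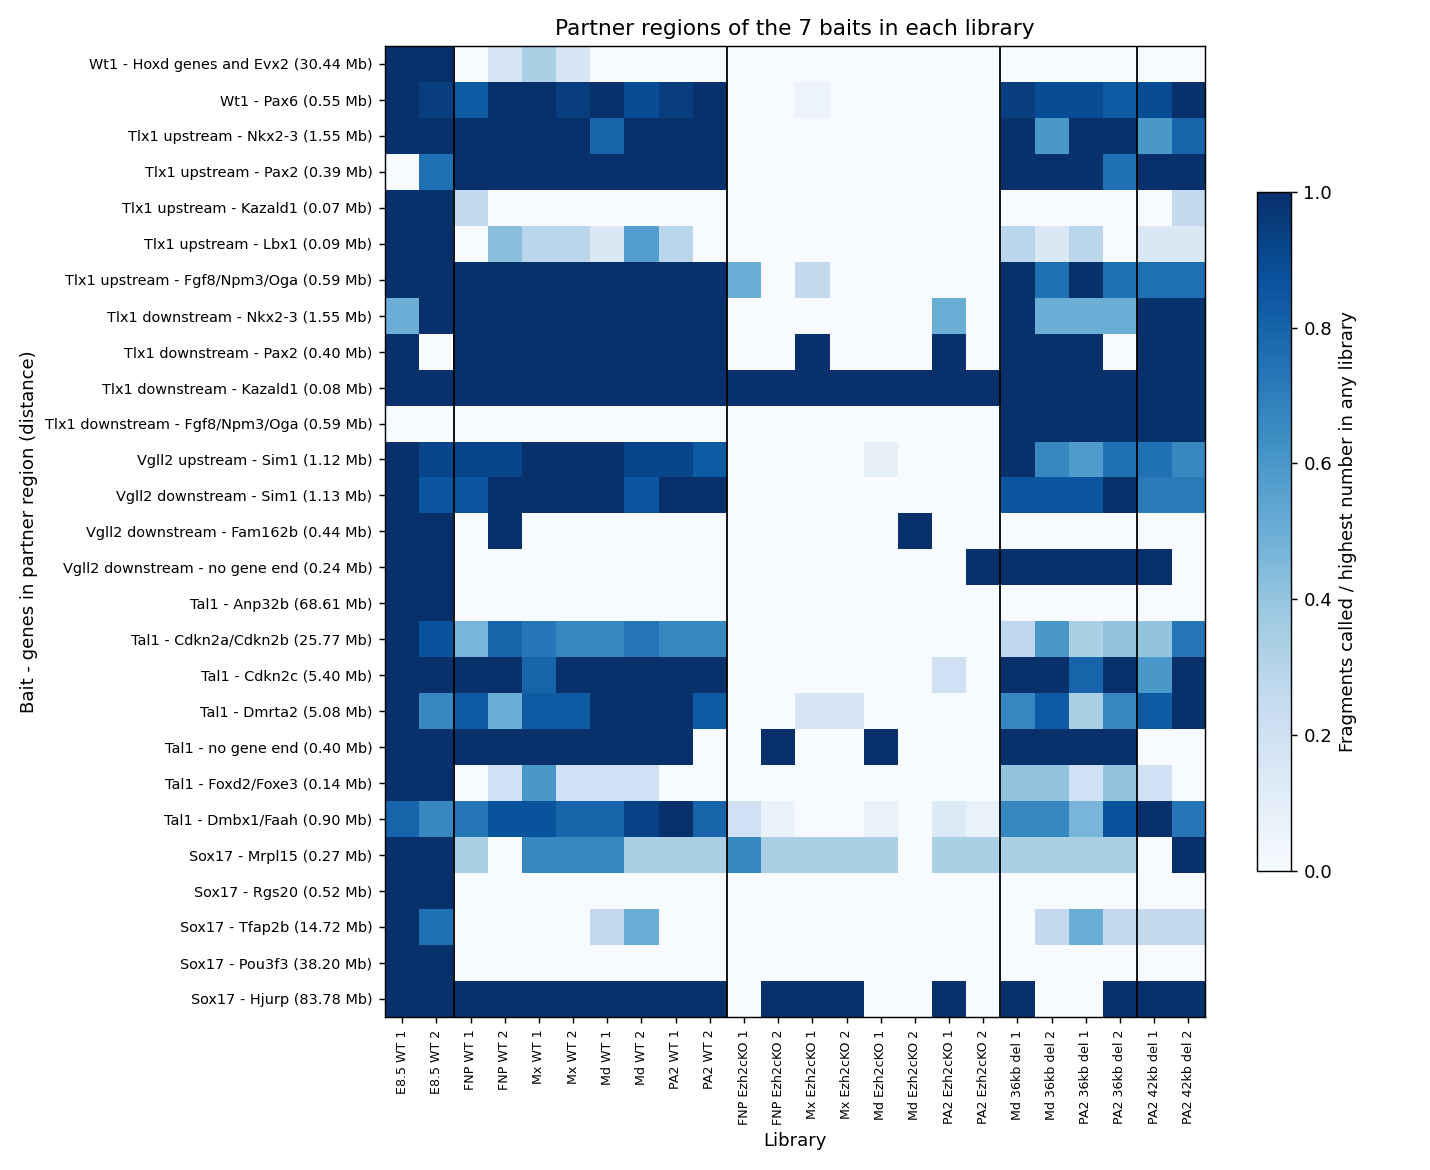
Partner regions of each bait (vertical axis, with the genes in them and the distance) in the 24 libraries (horizontal axis). The shade gives the called fragments as a share of the highest number in any library. The Ezh2cKO libraries are blank for 13 of the 27 regions, and the Tlx1 downstream to Kazald1 region is full in all 24.

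E8.5 brought contacts with single fragments that were rarely called later. Over the 7 baits, 29 contacts were called in both E8.5 libraries and in at most 1 of 8 E11.5 WT libraries, and 2 of the 82 recurrent contacts were called in neither E8.5 library. The 2 rules differ in strictness because the stages had 2 and 8 libraries. Both rules go by single fragments, and some of the 29 lay in regions called in 7 or 8 of 8 E11.5 WT libraries. These were Tal1 at Cdkn2b, Dmrta2 and Faah, and Sox17 at Hjurp and near Mrpl15. The Hjurp fragment recurrent for Sox17 at E11.5, called in neither E8.5 library, adjoins the one called in both. In the plot of partner regions, Tal1 with Anp32b and Sox17 with Rgs20 and with Pou3f3 were called in both E8.5 libraries and nowhere else. Others seen in both E8.5 libraries had calls in some later ones, among them Wt1 with Hoxd and Evx2 (3 of 8 E11.5 WT libraries), Tlx1 upstream with Kazald1 (1 of 8) and Lbx1 (6 of 8), Vgll2 downstream with Fam162b (1 of 8), and Sox17 with Tfap2b (2 of 8). A fragment 240 kb from Vgll2 downstream with no gene end was called in both E8.5 libraries, in none of E11.5 WT and in all 4 of the 36kb deletion. Over all 10344 baits, 28.9% passed the stage test in either direction, and 1 of the 7 members did. For the 6 others the log2 differences lay between -0.59 and 0.52, with adjusted p (limma) from 0.304 to 0.613. The spread in this fit, and in the deletion and tissue tests below, was estimated over all 12 groups. It thus took in Ezh2cKO libraries with 0 to 3 calls at Wt1, Tlx1 upstream and both Vgll2 baits, where 1 call is a large log2 step. Their stage SE was 0.48 to 0.59, against 0.25 to 0.36 for Tal1, Sox17 and Tlx1 downstream, so differences there could be missed. Without the Ezh2cKO libraries, Wt1 for stage in cis calls was the only added member call.

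**Figure D4:**
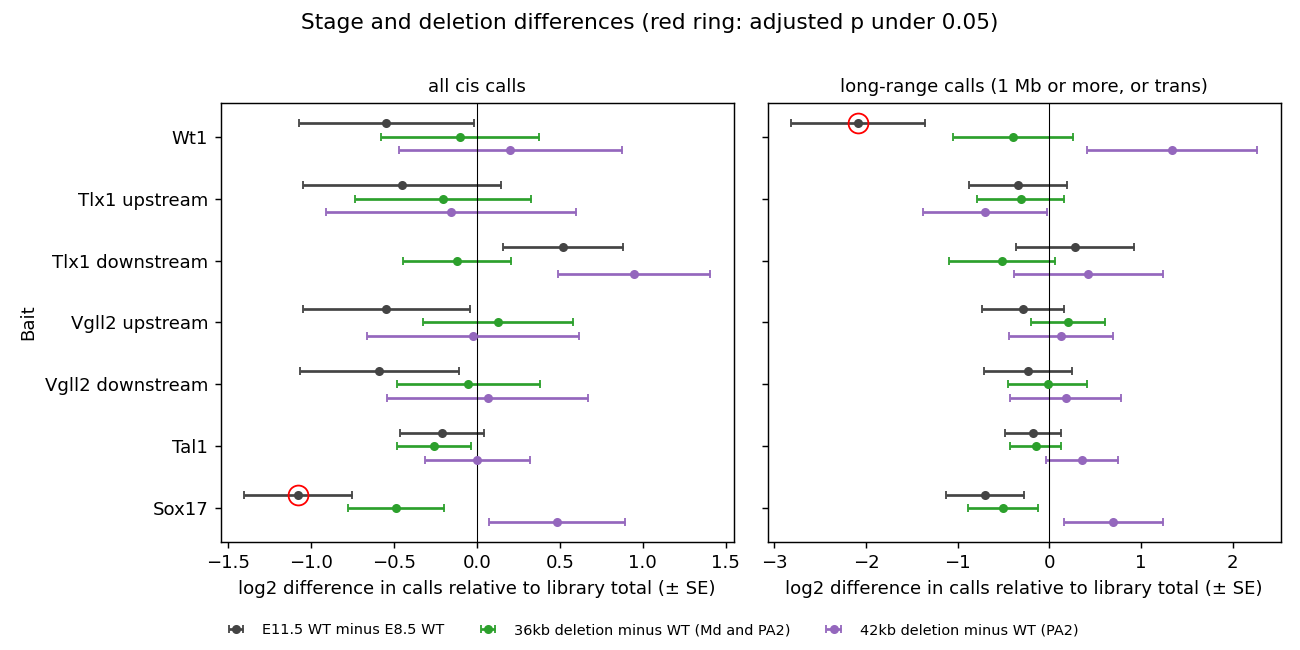
Log2 differences with standard errors (horizontal axis) of the 7 baits for stage and both deletions, in all cis calls (left) and in long-range calls (right). Red rings mark adjusted p under 0.05, which only Sox17 (left) and Wt1 (right) reached, both for stage. The Wt1 bait passed the long-range filter only through its E8.5 calls.

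Neither Hoxa2PTE deletion moved a member past the test. These contrasts use the Md and PA2 WT libraries that also took part in the choice of members. For the 36kb deletion the cis log2 differences lay between -0.49 for Sox17 (SE 0.29, adjusted p = 0.288) and 0.13 for Vgll2 upstream (SE 0.45, adjusted p = 0.882), with 11.1% of all baits passing. Tal1 in the PA2 libraries of this deletion spanned 28 and 63 calls, against 59 and 55 in PA2 WT, so its spread there was wide. For the 42kb deletion, with 1.84% of all baits passing, the differences lay between -0.16 for Tlx1 upstream (SE 0.75, adjusted p = 0.942) and 0.95 for Tlx1 downstream. The Tlx1 downstream bait had 14 and 13 calls in the 42kb deletion and 7 and 8 in PA2 WT. These did not overlap, but the difference of 0.95 (SE 0.46) had an adjusted p of 0.292. In long-range calls no member passed for either deletion, where 4.16% and 1.58% of 5957 baits did. Tlx1 upstream had 3 to 6 long-range calls in Md with the 36kb deletion, against 10 in each Md WT library. In PA2 it had 7 in each 36kb and 3 to 5 in the 42kb deletion libraries, against 8 to 10 in WT. The long-range share of all calls was also lower in the deletion libraries than in E11.5 WT. Relative to long-range totals the differences were -0.31 (SE 0.48) and -0.70 (SE 0.67).

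No member passed the test for a difference between the 4 WT tissues, under the same limit of a shared spread. An F test over FNP, Mx, Md and PA2 found 28 of 10344 baits (0.271%) and no member, with adjusted p (limma) from 0.937 for Vgll2 downstream to 0.999. The lowest p was that of Vgll2 downstream, with 8 and 9 calls in FNP, 10 and 10 in PA2, 12 and 14 in Md and 13 and 19 in Mx. The FNP and Mx libraries of this bait did not overlap, though the test did not pass. Tal1 had 49 and 55 calls in FNP, 58 and 52 in Mx, 59 and 55 in PA2, and 64 and 62 in Md, where both libraries lay above those of the other tissues (adjusted p = 0.996, limma). In long-range calls it passed in 0.0504% of 5957 baits and no member. The test of whether the Ezh2cKO difference varied between tissues passed in 1 of 10344 baits (0.00967%) and in no member, with the lowest adjusted p, 0.580, again in Vgll2 downstream. In long-range calls 0.0168% of baits and no member passed. In Ezh2cKO, the 4 tissues of Wt1 had 1 and 0, 1 and 0, 0 and 1, and 3 and 0 calls in FNP, Mx, Md and PA2. The Tal1 libraries spread more in Ezh2cKO, from 9 in FNP replicate 1 to 21 in PA2 replicate 1.

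The members differed in how far their contacts reached. In E11.5 WT, long-range calls made up 9.83% of all calls of Wt1, 38.4% of Tlx1 upstream, 42.6% of Tlx1 downstream, 55.5% of Tal1 and 74.4% of Sox17. Of these, only the Wt1 share lay below the median bait. Calls to other chromosomes were few. Tlx1 upstream had the most, with 5 and 2 at E8.5, 0 to 3 in E11.5 WT (median 1), 0 or 1 in Ezh2cKO and 0 in all 6 deletion libraries. Among its partners there were Hoxb3, called in both E8.5 libraries and 1 E11.5 WT library, and Hoxb7, Hoxb8, Hoxb9, Hoxa4, Hoxc5 and Hoxc6, each called in 1 E8.5 library only. Hoxb5 was called in 1 library of either stage, and Hoxc10 and Hoxc13 in 1 E11.5 WT library each and not at E8.5. The other 6 baits had at most 2 trans calls in a library.

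Developmental genes among the partners were counted against a list of developmental and Hox genes, also written with earlier results known. In E11.5 WT the mean number per library was 4.25 ± 1.16 for Tlx1 upstream (SD, n = 8), 1.75 ± 1.04 for Wt1, 1.62 ± 0.74 for Tlx1 downstream, 1.12 ± 0.35 for Vgll2 upstream and 1.00 ± 0.00 for Vgll2 downstream. It was 0.75 ± 0.71 for Tal1 and 0.25 ± 0.46 for Sox17. The list holds neither Dmbx1 nor Dmrta2, both called with Tal1 in 8 of 8 E11.5 WT libraries. The Tal1 value thus leaves them out and depends on the list. The mean over 10344 baits was 0.0993, and 2.93% of baits had a mean of at least 1 per library. The members were chosen in part for such partners in WT, which may have included E8.5, so the values of both stages are a description. At E8.5 Wt1 had 7 and 6 such partners, Tlx1 upstream 9 and 8, and Sox17 2 and 2, above their E11.5 WT libraries, which reached 4, 6 and 1. The other 4 baits had 1 and 1 at E8.5, within the range of their E11.5 WT libraries. At E8.5 the mean over all 10344 baits was 0.111, and 3.82% had a mean of at least 1 per library.

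Other baits followed the members closely over the 24 libraries, as a description that rests largely on the gap between the Ezh2cKO libraries and the rest. The bait most like Wt1 was Nkx2-3 (Pearson r = 0.976 of log2 calls relative to library totals), with 21.5 ± 3.82 cis calls in E11.5 WT and 1.25 ± 1.28 in Ezh2cKO (SD, n = 8). Nkx2-3 was also the most like Tlx1 upstream, its partner (r = 0.957). The bait most like both Tal1 (r = 0.958) and Vgll2 upstream (r = 0.953) was Pax6, the partner of Wt1, with 27 ± 4.60 calls in E11.5 WT and 1.38 ± 1.06 in Ezh2cKO. Tbx20, a heart regulator, was the most like Vgll2 downstream (r = 0.928). The values for Tlx1 downstream (Nkx1-2, r = 0.780) and Sox17 (Gsx1, r = 0.817) were lower. Pax6 lies on chromosome 2, whereas Tal1 and Vgll2 lie on chromosomes 4 and 10.

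Lists of further genes of each lineage, members left out, showed how far the Ezh2cKO differences went within a lineage. Of 13 baits tested for kidney, gonad and mesothelium genes, 6 were lower in Ezh2cKO and 1 higher, with a median log2 difference of -0.47. Of 10 endoderm baits, 7 were lower and none higher (median -0.67). Of 5 baits of spleen and TLX genes, 2 were lower, and of 8 muscle baits 2 were lower, with none higher in either. Of 11 baits of blood and endothelium genes none passed (median -0.09), although Tal1 and Sox17 belong to that field. The median over all 10344 baits was 0.01. For comparison, 6 of 24 crest baits were lower and 1 higher (median -0.22), and 2 of 18 housekeeping baits were lower (median 0.07). In the stage contrast 6 of the 13 kidney baits were higher at E11.5 and 1 lower, and 2 of the 10 endoderm baits were higher and 1 lower. Of the blood baits 3 were higher and 1 lower, and 1 bait each was higher in the spleen and muscle lists. Over all baits the share higher at E11.5 was 18.6%. With the 36kb deletion (5.46% of all baits higher and 5.65% lower) 1 kidney bait was higher and 1 lower, 1 blood bait was lower, and no spleen, muscle or endoderm bait passed. With the 42kb deletion (0.822% higher and 1.02% lower) 2 blood baits were lower, and none of the other 4 lineage lists had a bait that passed. Of 9 baits of Polycomb subunit genes 1 was higher in Ezh2cKO. Of 191 developmental baits outside the Hox clusters 75 were lower in Ezh2cKO and 8 higher in cis calls, and of 43 Hox baits 13 were lower and 6 higher, where 5.39% of all baits were lower and 5.38% higher. In long-range calls 5.89% of 5957 baits were lower and 3.98% higher. There 22 of 35 Hox baits were lower and 0 higher (median log2 difference -3.33), and 77 of 116 developmental baits were lower and 2 higher (median -1.93). Of the kidney baits 4 of 6 were lower (median -3.04), of the endoderm baits 7 of 8 (median -2.41), of the crest baits 7 of 14 (median -0.75) and of the muscle baits 3 of 6 (median -0.81), with none higher. None of 5 blood baits passed (median -0.16).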

How the data were processed

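Promoter capture Hi-C calls of 24 libraries were used, 1 list per library, placed in 12 groups of 2 from the labels. The deposited values are a score per called pair of HindIII fragments, named as CHiCAGO output in the deposited files, with no score under 5. The build is GRCm38 (mm10), per the submitters' processing notes. The aligner, the caller's version and its settings were not given in the sources used here. Without a known read depth, no counting interval was computed. Each library has its own batch label, so batch could not be tested.

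Calls of a bait were counted in either position of a pair. Counts were taken as log2((calls + 0.5) / library total of the same kind of call). The fit took the mean of each of the 12 groups (limma 3.58.1, R 4.3.3), with trended empirical Bayes, two-sided tests and Benjamini-Hochberg adjustment, for 10344 baits with a mean of at least 5 cis calls and 5957 with at least 2 long-range calls. A difference passed at an adjusted p under 0.05. The scripts were tested on simulated data. The members and lists were chosen with earlier results of these data known. Named partners were those called in at least 7 of 8 E11.5 WT libraries, kept or gained in Ezh2cKO, or called at E8.5 or in deletions alone. Partner genes had an annotated end within 1 kb. Same-numbered libraries were not paired.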

Additional observations from a re-analysis of the deposited data

Results flagged for a closer look

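Among 21 sets of libraries examined, chance would set apart about 1 in 20. In the Ezh2cKO set of Wt1, the PA2 replicate 1 library had 3 cis calls, and the nearest of the other 7 libraries had 1.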

How the results depend on the processing

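The replicate number as a block gave 2968 baits for stage and 1133 for the 36kb deletion in cis calls, against 2991 and 1149 without it. Over 66 pairs of groups the same-number correlations ran from -0.086 to 0.158, with 1 above 0.1, so the numbers did not pair the libraries. Under the block the long-range WT tissue test called 0 baits in place of 3 (406 at an unadjusted p under 0.05) and no call on a member changed.

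With scores of at least 7, cis counts were 1543 for stage, 524 and 108 for the 36kb and 42kb deletions, 9 for WT tissues, 2 for Ezh2cKO by tissue and 567 for Ezh2cKO. Long-range counts were 757 for stage, 149 for the 36kb deletion, 356 for Ezh2cKO and 0 for Ezh2cKO by tissue (118 unadjusted). WT tissues in cis went from 28 to 18 with the lower filter and 9 without the Ezh2cKO libraries. In long-range calls they went from 3 to 6 with an offset of 1, 9 with the lower filter and 0 with median-of-ratios scaling (398 unadjusted). Counting pairs in the first position only, chosen after the data were seen as was leaving out the Ezh2cKO libraries, gave 2 for Ezh2cKO by tissue in long-range calls.

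Leaving out each library in turn gave 1673 to 3081 baits for stage, 583 to 1295 and 29 to 217 for the 36kb and 42kb deletions, 7 to 29 for WT tissues and 1 to 3 for Ezh2cKO by tissue in cis calls. In long-range calls it gave 731 to 1280, 109 to 317, 41 to 107, 0 to 14 and 0 to 2. Cis counts dropped by over 1.5 times without either E8.5 library for stage, without any Md or PA2 WT library or replicate 1 of either 36kb deletion group for that deletion, and without any PA2 WT or 42kb deletion library for the 42kb deletion.

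No value that turned direction passed the test, and the cause was not tested. With scores of at least 7 these were Vgll2 upstream 36kb deletion cis -0.067, Vgll2 downstream 42kb deletion cis -0.27, Tal1 42kb deletion cis -0.24, Vgll2 downstream 36kb deletion longrange 0.10, Sox17 36kb deletion longrange 0.37 and Tal1 42kb deletion longrange -0.026. With the first position only they were Wt1 36kb deletion cis 0.048, Vgll2 downstream 42kb deletion cis -0.086, Tal1 42kb deletion cis -0.17 and Vgll2 upstream 42kb deletion longrange -0.089. Median-of-ratios scaling, which moved the long-range stage median of all baits from 0.12 to -0.26, gave Tlx1 downstream stage longrange -0.10 and Tal1 42kb deletion cis -0.037. An offset of 1 gave Vgll2 downstream 36kb deletion longrange 0.0043.

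Leaving out 1 library turned the stage difference of Tlx1 downstream (-0.066 to 1.11 in cis, -0.017 to 0.58 in long-range calls) and of Vgll2 downstream (-0.66 to 0.19, long-range). For the 36kb deletion it turned Tlx1 downstream (-0.24 to 0.0045), Vgll2 downstream (-0.23 to 0.13) and Tal1 (-0.52 to 0.0025) in cis, and Wt1 (-0.97 to 0.17), Vgll2 downstream (-0.20 to 0.16) and Tal1 (-0.35 to 0.048) in long-range calls. For the 42kb deletion it turned Tlx1 upstream (-0.33 to 0.024), Vgll2 upstream (-0.18 to 0.14), Vgll2 downstream (-0.028 to 0.16) and Tal1 (-0.083 to 0.092) in cis, and Tlx1 downstream (-0.23 to 1.08) and Vgll2 upstream (-0.038 to 0.29) in long-range calls. The Sox17 cis stage difference ran from -1.36 to -0.80 over 24 fits. The Wt1 long-range stage difference ran from -2.29 to -1.88 over only 22 fits. Without either E8.5 library that bait fell under the filter, so its dependence on those libraries could not be checked. Matching partners within 10 kb in place of the same fragment raised recurrent partners to 24 and 12 for Tlx1 upstream and downstream, 17 for Vgll2 downstream, 73 for Tal1 and 9 for Sox17. Stricter rules lowered them. Scores of at least 7 left 7 of 13 for Tlx1 upstream and 1 of 2 for Sox17. A call in all 8 E11.5 WT libraries left 19 of 29 for Tal1, 1 of 2 for Sox17 and 61 of the 82 in all.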
